A study of Mus musculus with 24 samples.

Results

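The genes described here encode proteins that set how much Ras is active around the lipid messenger diacylglycerol. They comprise the Ras guanyl-releasing proteins Rasgrp1, Rasgrp2, Rasgrp3 and Rasgrp4, the exchange factor Sos1, the diacylglycerol kinases Dgka, Dgkz and Dgkd, and the Ras GTPase-activating proteins Rasa2 and Rasal3. These 10 genes were chosen by symbol from the 24421 genes of the count tables, and all 10 passed the filter on low counts in every fit.

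The phospholipase C gamma enzymes, PLCγ1 and PLCγ2, cut a membrane phosphoinositide into diacylglycerol and an inositol phosphate that releases calcium. RasGRP proteins carry a C1 domain, through which most of them bind diacylglycerol, and load Ras or Rap with GTP. By contrast, Sos1 reaches the membrane through the adaptor Grb2 and does not need diacylglycerol for this. Diacylglycerol kinases convert diacylglycerol to phosphatidic acid and so end the lipid signal, and GTPase-activating proteins return Ras to its GDP-bound form. In lymphocytes RasGRP1 is best known from thymocytes and RasGRP3 from the B cell receptor pathway, and diacylglycerol kinases α and ζ are known to dampen antigen receptor signals.

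The study asked how loss of both PLCγ enzymes changes gene expression in early B lineage cells. RNA was sequenced from common lymphoid progenitors (CLPs, sorted as Lin-IL-7R+) and from B cell progenitors (sorted as B220+IgM-IL-7R+) of the bone marrow of 12 mice, each of which gave 1 library of each population. The 4 genotypes were Plcg1+/+ Plcg2+/+ (wild-type), Plcg1-/- Plcg2+/+ (PLCγ1-deficient), Plcg1+/+ Plcg2-/- (PLCγ2-deficient) and Plcg1-/- Plcg2-/- (double-deficient), with 3 libraries in each genotype and population, 24 in all. All donors, wild-type included, carried the MxCre transgene, in which the type I interferon-inducible Mx promoter drives Cre, and the Rosa-YFP reporter, were adult mice of a mixed 129xC57BL/6 background, and were given poly(I:C) to induce Cre. Plcg1-/- here means floxed alleles deleted by that Cre, and Plcg2-/- a germline deletion. Marrow of the donors was transplanted into lethally irradiated CD45.1+ wild-type recipients, and donor-derived CD45.2+ cells were sorted weeks later, so the animals sampled were chimeras whose non-haematopoietic cells were wild-type. The sources used here do not say how many donors stand behind the 3 recipients of a genotype.

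The results turn most on Rasgrp1, the only member called between genotypes, and on Rasgrp2, whose levels ran the other way. Rasgrp1 lies on chromosome 2 at positions 117279983 to 117342877 and Rasgrp2 on chromosome 19 at positions 6398957 to 6415216 of the RefSeq annotation of GRCm38.p6. Promoter sequence from RefSeq was found for 9 of the 10 members, all except Rasgrp4, and for these 2 genes the stretch upstream of that table's start and outside any annotated exon is shown, 5′ to 3′ on the strand of the gene, with the GC box (GGGCGG on either strand) in capitals.
Rasgrp1 (chr2:117343002-117343127, minus strand): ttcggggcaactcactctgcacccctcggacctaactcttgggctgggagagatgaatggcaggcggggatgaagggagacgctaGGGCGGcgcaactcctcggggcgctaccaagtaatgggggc
Rasgrp2 (chr19:6399625-6399745, plus strand): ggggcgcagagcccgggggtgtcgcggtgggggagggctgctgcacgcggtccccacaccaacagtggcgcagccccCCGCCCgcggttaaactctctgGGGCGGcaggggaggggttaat
Both stretches were GC-rich, at 63.5% over 126 bases for Rasgrp1 and 73.6% over 121 bases for Rasgrp2, against medians of 50.8% and 50.4% in the same stretch of 32851 promoter windows. The Rasgrp2 stretch lies inside the annotated span of the gene, which holds more than 1 start. Rasgrp1 held 1 GC box and Rasgrp2 held 2, and 13.5% and 12.9% of the windows of those lengths held at least 1. Neither stretch held the ETS core GGAA, the E-box CANNTG or the AP-1 site TGANTCA on either strand, which 75.8%, 43.4% and 3.24% of the windows of 126 bases and 74.3%, 42.1% and 3.11% of those of 121 bases held. A match is a description of these letters only.

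Reads on genes ranged from 4232345 to 33219995 in CLP libraries and from 1479582 to 25057223 in B cell progenitor libraries, where 3 reads correspond to between 0.0908 and 2.0 normalised CPM (read counts scaled to the total of each library on genes). The share of reads assigned to no gene was 17.9% to 45.2% in CLPs and 59.9% to 87.3% in B cell progenitors. Plcg2 was between 72.1 and 137.4 CPM in the 12 libraries labelled Plcg2-/- and between 182.5 and 281.5 CPM in the others, whereas Plcg1, counted over the whole gene, overlapped (56.0 to 185 CPM in libraries labelled Plcg1-/- and 77.3 to 112.9 CPM in the others), so its counts cannot check the deletion of a part of it. In the 12 libraries labelled Plcg1-/- Xist was at least 1293 CPM and 4 Y-linked genes summed to at most 49.6 CPM, against at most 741.7 and at least 234.3 CPM in the other 12. Sex and Plcg1 genotype therefore cannot be told apart where PLCγ1- or double-deficient cells are set against wild-type cells, while double- and PLCγ1-deficient cells had the same pattern, as had PLCγ2-deficient and wild-type cells. Pax5, which encodes the transcription factor that commits cells to the B lineage, was between 37.7 and 253 CPM in CLPs and between 52.4 and 217.7 CPM in B cell progenitors, so the libraries labelled CLP held B lineage transcripts, and Flt3, a marker of lymphoid progenitors, was no higher than 115.1 CPM in 8 of the 12 CLP libraries. In a bulk sample, fewer cells of a type and less RNA per cell cannot be told apart.

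Libraries of 2 kinds stood apart. In 4 CLP libraries, 1 of each genotype (wild-type 1, PLCγ1-deficient 2, PLCγ2-deficient 2 and double-deficient 2), Flt3 was between 196.1 and 734.1 CPM and Cpa3, a mast cell protease, between 269.4 and 398.2 CPM, against at most 103.5 CPM of Cpa3 in the other 8. In both libraries of replicate 1 of each deficient genotype, 6 in all, Il7r was between 133.5 and 159.4 CPM and Mpo, a granule enzyme of myeloid cells, between 3047 and 4334 CPM, against at least 181.4 CPM of Il7r and at most 3048 CPM of Mpo in the other 18. Rasal3 was between 339.3 and 466.7 CPM in the 4 CLP libraries and between 116.5 and 194.6 CPM in the other 8, and the highest Rasgrp4 levels lay among the 6.

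**Figure D1:**
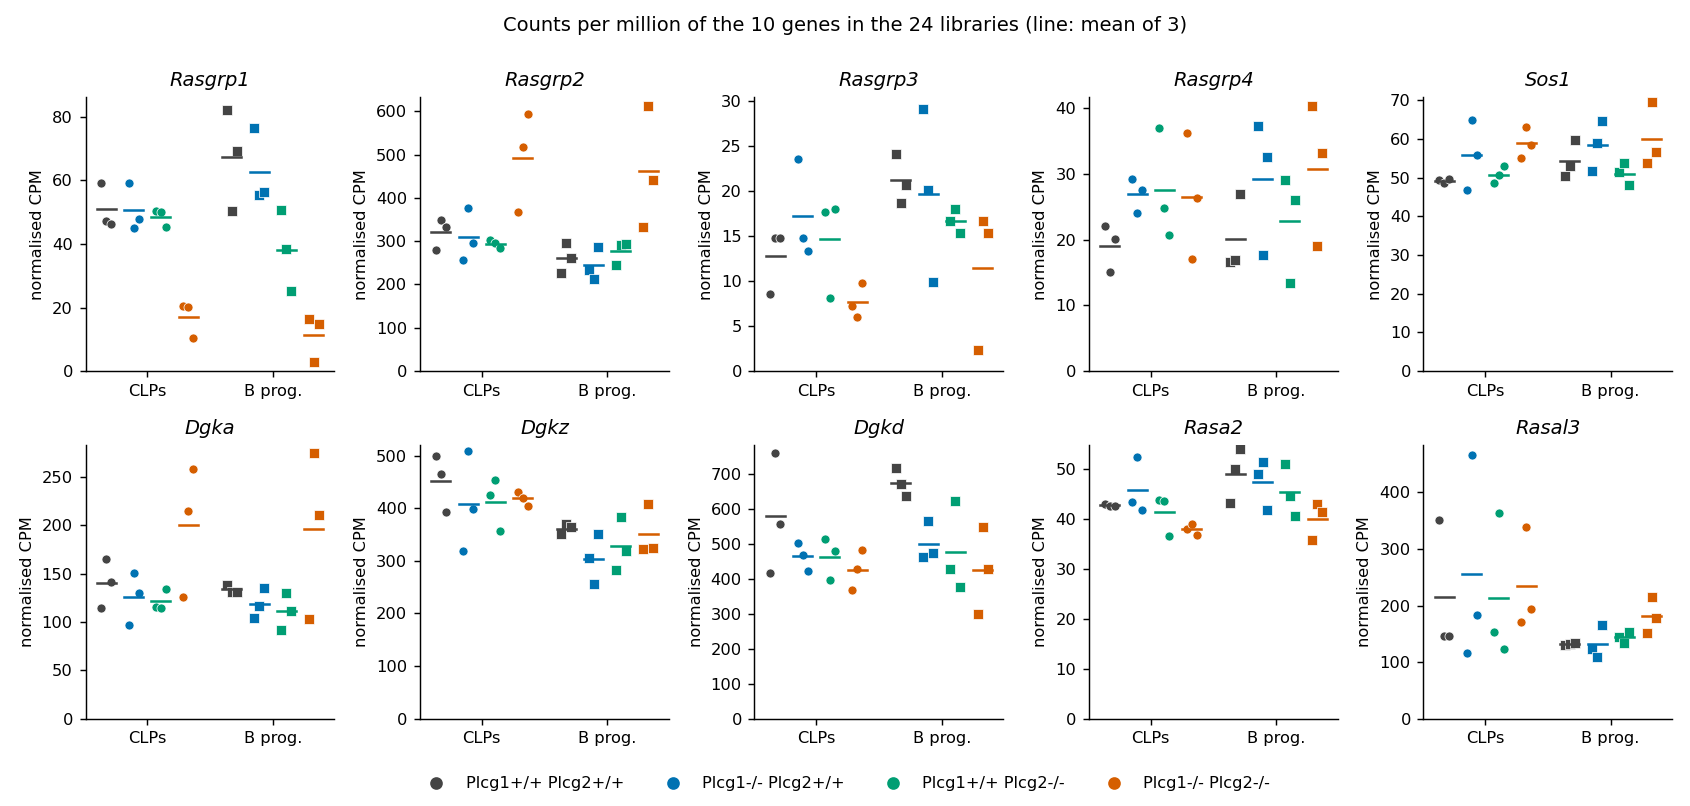
Normalised CPM (y axis, from 0) of each of the 10 genes in the 24 libraries, by population (x axis; circles, CLPs; squares, B cell progenitors) and genotype (colour), with a line at the mean of the 3 libraries. Rasgrp1 lies between 2.96 and 20.4 CPM in the 6 double-deficient libraries and between 25.3 and 82.2 CPM in the other 18, while Rasgrp2 reaches 612 CPM in a double-deficient library.

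Levels of different genes were compared per kilobase of annotated exon (RPKM). Of the diacylglycerol kinases, Dgkd and Dgkz were the most abundant members, with group means of 62.1 to 98.6 RPKM for Dgkd, 48.5 to 72.1 for Dgkz and 23.3 to 42.0 for Dgka. Rasal3, a GTPase-activating protein of haematopoietic cells, was at 27.0 to 52.1 RPKM and Rasgrp2 at 19.7 to 39.8 RPKM. The remaining members were low: Rasgrp1 at 2.03 to 12.01 RPKM, Sos1 at 4.64 to 5.66, Rasgrp4 at 3.00 to 4.84, Rasgrp3 at 1.32 to 3.63 and Rasa2 at 2.39 to 3.09. Ordered by these levels, the range of group means of Rasgrp2 did not overlap that of Rasgrp1, and neither did single libraries (17.1 RPKM or more against 14.7 RPKM or less). Dgkz and Dgka did not overlap in their group means either, with Rasal3 between them overlapping both. All other neighbours in the order overlapped in their group means. The exon length of Rasgrp2 was 12384 bases, as annotated transcripts with long exons were included, so its RPKM value is low for its counts.

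**Figure D2:**
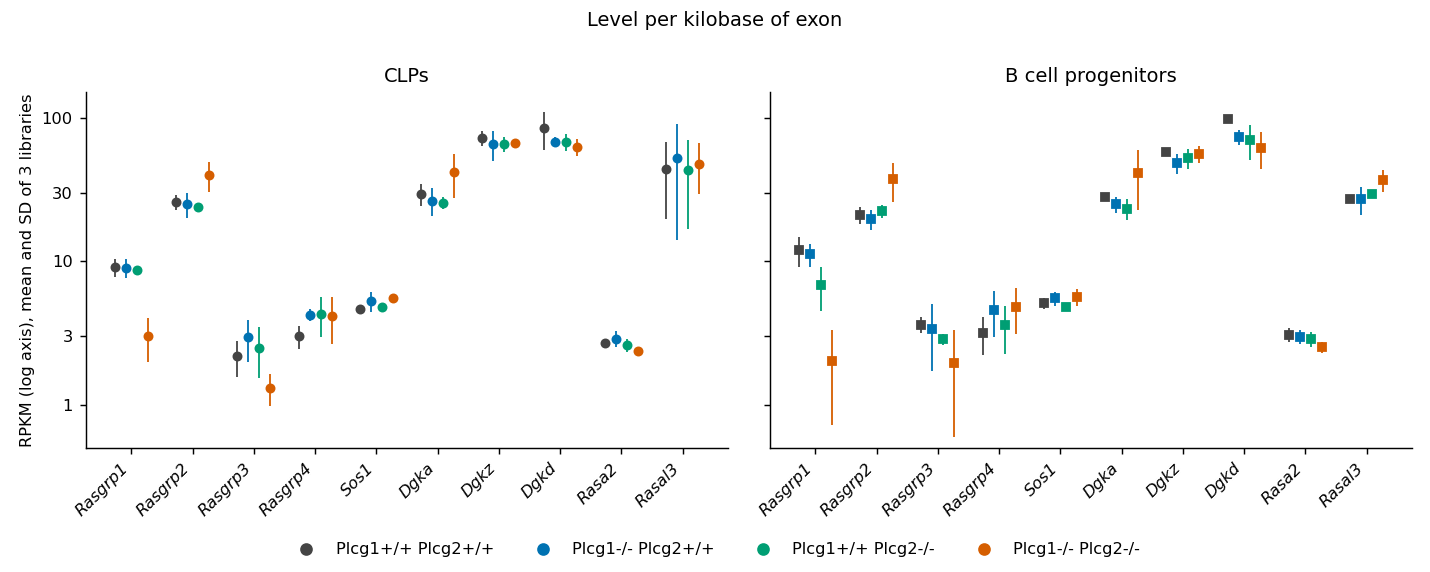
Level per kilobase of exon (RPKM, log axis) of the 10 genes in CLPs (left) and B cell progenitors (right), as the mean and SD of the 3 libraries of each genotype (colour). In wild-type cells Rasgrp1 has the second highest level of the Ras guanyl-releasing proteins, and in double-deficient cells it is at 3.03 RPKM in CLPs and 2.03 RPKM in B cell progenitors, next to Rasgrp3 and Rasgrp4.

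Rasgrp1, the exchange factor that couples diacylglycerol to Ras in thymocytes, was lower in double-deficient than in wild-type cells of both populations. In CLPs its level was 59.1, 47.2 and 46.2 CPM in wild-type libraries and 20.4, 20.2 and 10.3 CPM in double-deficient libraries. In B cell progenitors it was 82.2, 50.4 and 69.1 CPM in wild-type libraries and 16.4, 2.96 and 14.8 CPM in double-deficient libraries, of which 2.96 CPM stands for 69 reads. The highest double-deficient library lay below the lowest wild-type library in each population. Rasgrp1 fell 3.04-fold in CLPs (log2 fold change -1.60, SE 0.236, 95% interval -2.12 to -1.09, edgeR adjusted p = 0.0375) and 6.38-fold in B cell progenitors (log2 fold change -2.67, SE 0.499, 95% interval -3.76 to -1.59, edgeR adjusted p = 0.0271). A gene was called at an adjusted p of at most 0.05 with a log2 fold change of at least 0.5 in size.

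Rasgrp1 was the only member called in either comparison, 1 of 10 in each. Over all genes tested edgeR called 0.0921% in CLPs and 0.893% in B cell progenitors. At an unadjusted edgeR p of at most 0.05 there were 3 members in CLPs (Rasgrp1, Rasgrp2 and Dgkd) and 4 in B cell progenitors (these and Rasal3), against 7.52% and 12.3% of all genes. DESeq2 called 1 member in CLPs and 2 in B cell progenitors, where the second was Rasgrp2. Of all genes DESeq2 called 169 and 444. The median log2 fold change of the 10 members was -0.0075 in CLPs and 0.053 in B cell progenitors, against -0.033 and -0.018 over all genes tested, with 5 members on each side of 0 in both populations. The libraries of the 2 genotypes did not overlap for 4 of the 10 members in CLPs and 6 of the 10 in B cell progenitors, against 13.6% and 19.2% of all genes tested. The members were chosen with earlier results of these data known, so these shares are a description and no test of the list.

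The Rasgrp1 difference stayed below 0 whichever library was left out, but its size varied in B cell progenitors and its adjusted p lay close to the threshold. With the 4 CLP libraries of high Flt3 and Cpa3 left out the log2 fold change in CLPs was -1.61 with an adjusted p of 0.0853, and with the 6 libraries of low Il7r left out it was -1.77 with an adjusted p of 0.0916. When 1 CLP library at a time was left out, the call in CLPs held only without wild-type 1 (adjusted p = 0.0434) or double-deficient 1 (0.0274), and was lost without each of the other 10 libraries, with adjusted p from 0.0522 to 0.131. The log2 fold change over these 12 fits was between -1.34 (without double-deficient 3) and -1.79 (without double-deficient 1). In B cell progenitors the call held without the 6 libraries of low Il7r (-3.05, adjusted p = 0.0225) and without the 3 libraries of the largest share of reads on no gene (-2.67, adjusted p = 0.0347). There it was lost without wild-type 1 (log2 fold change -2.50, adjusted p = 0.0832), wild-type 2 (-2.83, 0.0606), wild-type 3 (-2.62, 0.0876) or double-deficient 3 (-3.05, 0.078). The smallest difference was -2.11, without double-deficient 2, where the call held (adjusted p = 0.0199).

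In single-deficient cells Rasgrp1 did not pass the test. In CLPs it was 59.1, 44.9 and 47.9 CPM in PLCγ1-deficient and 50.3, 50.1 and 45.3 CPM in PLCγ2-deficient libraries, which overlapped with wild-type libraries and gave log2 fold changes of -0.01 and -0.06. In B cell progenitors it was 76.4, 55.4 and 56.3 CPM in PLCγ1-deficient libraries (log2 fold change -0.08) and 50.6, 38.4 and 25.3 CPM in PLCγ2-deficient libraries (log2 fold change -0.79, 95% interval -1.80 to 0.22, edgeR adjusted p = 0.919). The PLCγ2-deficient B cell progenitors lay between wild-type and double-deficient libraries, overlapping with the former and not with the latter. No pair of double- and PLCγ2-deficient groups was tested. In each of the 4 comparisons of single-deficient with wild-type cells edgeR and DESeq2 called 0 members, and 0 reached an unadjusted p of at most 0.05. Over all genes edgeR called 0.00658% in PLCγ1-deficient and 0% in PLCγ2-deficient CLPs, the latter with 596 genes at an unadjusted p of at most 0.05 and 11 called by DESeq2, and 0.06% and 0.0467% in B cell progenitors.

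Double-deficient cells were also set against PLCγ1-deficient cells, which share their pattern of sex-linked genes. Rasgrp1 differed by -1.59 on the log2 scale in CLPs (SE 0.236, edgeR adjusted p = 0.0683) and by -2.59 in B cell progenitors (SE 0.4996, edgeR adjusted p = 0.0733), with no overlap of the libraries in either, and passed the threshold in neither. Replicates with the same number deviated together in the CLP comparison, and a fit blocked on that number called Rasgrp1 there at -1.62 (adjusted p = 0.0168). Without the block edgeR called 0 of the 10 members in both comparisons, against 0.0263% of all genes tested in CLPs and 0.213% in B cell progenitors. At an unadjusted edgeR p of at most 0.05 there were 5 members in CLPs and 4 in B cell progenitors, against 4.29% and 16.6% of all genes. DESeq2 called 1 and 2 members, and 96 and 802 of all genes.

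The difference between double-deficient and wild-type cells in Rasgrp1 was itself compared between populations, and was further from 0 in B cell progenitors by -1.07 on the log2 scale, with a 95% interval of -2.24 to 0.10 and an edgeR adjusted p of 1. This test of the 2 differences against each other called 0 of the 10 members and 0% of all genes with edgeR, and 0 genes with DESeq2, with 235 genes but no member at an unadjusted p of at most 0.05. A larger fall in B cell progenitors was therefore not shown.

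Other cell types could contribute to a level in bulk RNA. Of 5 measured markers of later B cells (Ms4a1, Cr2, Fcer2a, Cd22 and Cd83), 0 were called in double-deficient against wild-type CLPs by edgeR, with 3 at an unadjusted p of at most 0.05, and 1, Cd22, was called lower in B cell progenitors. Their summed level was 89.6 to 140.8 CPM in double-deficient and 79.5 to 304.8 CPM in wild-type CLPs, and 70.3 to 129.1 against 208.8 to 284.3 CPM in B cell progenitors, and none of the 5 had a mean of 0 in these groups. The summed level of 8 T lineage markers overlapped, at 78.9 to 112.8 and 39.9 to 209.2 CPM in double-deficient and wild-type CLPs and 30.6 to 95.7 and 27.1 to 49.99 CPM in B cell progenitors. Among 8 NK and innate lymphoid markers edgeR called only Il2ra, which encodes CD25, lower in double-deficient than in wild-type B cell progenitors. Its means were 6.65 and 65.2 CPM there, and 8.42 and 44.7 CPM in CLPs, where it was not called. The median log2 fold change of the 8 in B cell progenitors was 0.77. The paper uses CD25 to mark pre-B cells, which were hardly detectable in double-deficient marrow. The part of these markers in the level of Rasgrp1 was not tested.

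**Figure D3:**
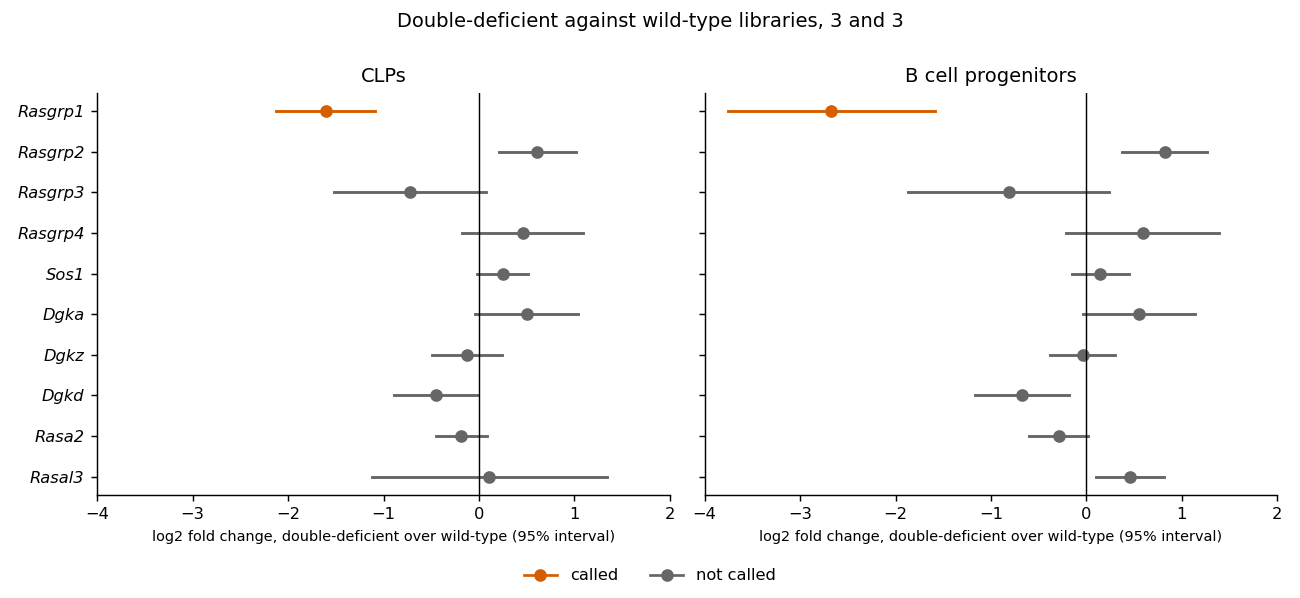
Log2 fold change of double-deficient over wild-type libraries (x axis, points, with 95% intervals as bars) for the 10 genes (y axis) in CLPs (left) and B cell progenitors (right), with called genes in orange. Rasgrp1 alone is called, at -1.60 and -2.67, and the intervals of Rasgrp2 lie above 0 in both populations without passing the adjusted threshold.

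Rasgrp2, which responds to calcium and acts mainly on Rap1, had the opposite direction without being called. In CLPs it was 278.9, 348.2 and 333.8 CPM in wild-type and 366.9, 518.5 and 593.9 CPM in double-deficient libraries. Levels in B cell progenitors were 225.7, 295.5 and 262.2 CPM in wild-type and 331.6, 612.4 and 441.4 CPM in double-deficient libraries. Every double-deficient library lay above every wild-type library of its population. Rasgrp2 gave log2 fold changes of 0.61 in CLPs (SE 0.185, edgeR adjusted p = 0.39) and 0.82 in B cell progenitors (SE 0.205, edgeR adjusted p = 0.109). With the 6 libraries of low Il7r left out, an alternative chosen after the data were seen, it was 0.99 in B cell progenitors with an adjusted p of 0.0403. Against PLCγ1-deficient cells it was 0.67 in CLPs (adjusted p = 0.55), where the libraries overlapped, and 0.89 in B cell progenitors (adjusted p = 0.142), where they did not. Single-deficient libraries were between 211.7 and 377.4 CPM. RasGRP2 is also abundant in platelets, and the summed level of 5 megakaryocyte and platelet markers was 43.0 to 311.6 CPM in double-deficient and 23.4 to 151.2 CPM in wild-type CLPs, and 20.3 to 94.7 and 25.3 to 43.0 CPM in B cell progenitors, none of them called by edgeR. Their part in the level of Rasgrp2 was not tested.

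**Figure D4:**
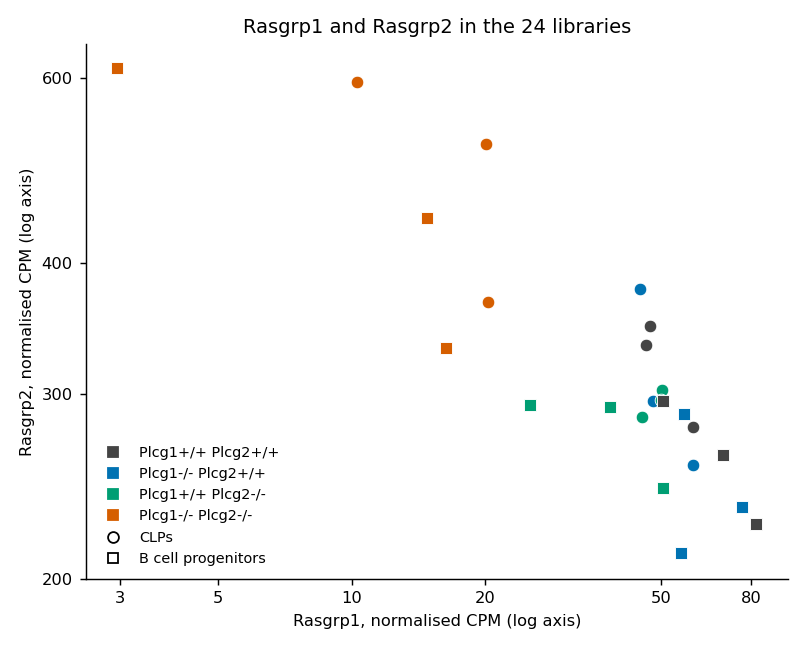
Rasgrp1 (x axis) against Rasgrp2 (y axis) in normalised CPM, both on log axes, in the 24 libraries by genotype (colour) and population (circles, CLPs; squares, B cell progenitors). The 6 double-deficient libraries lie at the upper left, at 2.96 to 20.4 CPM of Rasgrp1 and 331.6 to 612.4 CPM of Rasgrp2, and are apart from the other 18 on the x axis and not on the y axis, where the others reach 377.4 CPM.

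Per kilobase, Rasgrp2 held the largest share of the RasGRP transcripts in every group. The summed level of the 4 genes was 40.1 ± 1.84 RPKM (SD, n = 3) in wild-type and 48.3 ± 7.75 in double-deficient CLPs, and 39.9 ± 1.31 and 46.1 ± 9.70 in B cell progenitors. Rasgrp1 made up 22.8% ± 4.32 of that sum in wild-type and 6.56% ± 2.94 in double-deficient CLPs, and 30.1% ± 6.88 and 4.91% ± 3.62 in B cell progenitors. Rasgrp2 made up 64.3% ± 4.51 and 81.7% ± 6.91 in CLPs, and 53.0% ± 7.97 and 79.8% ± 7.84 in B cell progenitors. These shares rest on the levels tested above and were not tested themselves.

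Rasgrp3, known from B cell receptor signalling, was low and variable. In CLPs it was 8.61, 14.8 and 14.8 CPM in wild-type, 23.6, 14.8 and 13.4 CPM in PLCγ1-deficient, 17.7, 8.18 and 18.03 CPM in PLCγ2-deficient and 7.20, 6.07 and 9.78 CPM in double-deficient libraries. For B cell progenitors the levels were 24.2, 18.7 and 20.7 CPM in wild-type and 2.29, 16.7 and 15.4 CPM in double-deficient libraries, and the lowest of these stood for 7 reads. The double-deficient libraries lay below the wild-type libraries in B cell progenitors and overlapped with them in CLPs. Its log2 fold changes were -0.72 in CLPs (95% interval -1.52 to 0.07) and -0.81 in B cell progenitors (95% interval -1.87 to 0.24), with edgeR adjusted p of 0.681 and 0.513. Against PLCγ1-deficient CLPs it was -1.17 with no overlap (edgeR adjusted p = 0.698), and against PLCγ1-deficient B cell progenitors it was -0.73, which turned to 0.17 without the 6 libraries of low Il7r.

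Rasgrp4, known from mast cells, was between 13.4 and 40.3 CPM, and its libraries overlapped between double-deficient and wild-type cells in both populations. Its log2 fold change was 0.46 in CLPs and 0.59 in B cell progenitors, neither called. The 6 libraries of low Il7r held 29.1 to 40.3 CPM and the other 18 held 13.4 to 33.1 CPM, whereas the 4 CLP libraries of high Cpa3 held 17.05 to 24.8 CPM, within the range of 15.1 to 37.0 CPM in the other 8. Rasgrp4 was thus highest where Mpo was high and not where the mast cell protease was high.

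Sos1, the exchange factor that needs no diacylglycerol to reach its receptor complexes, varied little, with a median coefficient of variation of 7.75% over the 8 groups, the lowest of the 10 members. It was 49.5, 48.5 and 49.6 CPM in wild-type and 55.1, 62.9 and 58.5 CPM in double-deficient CLPs, which did not overlap. Wild-type and double-deficient B cell progenitors, at 50.4 to 59.6 and 53.7 to 69.6 CPM, did overlap. The log2 fold change was 0.25 (95% interval -0.03 to 0.52) and 0.15 (95% interval -0.16 to 0.45), neither called. Both intervals end short of the size of the Rasgrp1 change.

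Dgka, a kinase that phosphorylates diacylglycerol and is abundant in lymphocytes, was above the wild-type range in 2 of 3 double-deficient libraries of each population. In CLPs it was 114.8, 164.8 and 141.4 CPM in wild-type and 126, 215.1 and 258.4 CPM in double-deficient libraries. B cell progenitors held 138.4, 131.2 and 131.2 CPM in wild-type and 102.6, 274.3 and 210.7 CPM in double-deficient libraries. The groups overlapped through double-deficient replicate 1, which is among the 6 libraries of low Il7r, where Dgka was 92.0 to 126 CPM against 111.2 to 274.3 CPM in the other 18. Dgka gave log2 fold changes of 0.50 in CLPs (SE 0.247, edgeR adjusted p = 0.681) and 0.55 in B cell progenitors (SE 0.269, edgeR adjusted p = 0.436). Leaving out those 6 libraries, an alternative chosen after the data were seen, removed double-deficient replicate 1 and no wild-type library. The log2 fold change of Dgka was then 0.74 (edgeR adjusted p = 0.321) and 0.83 (edgeR adjusted p = 0.0401), the latter a call. With all libraries, Dgka against PLCγ1-deficient cells was at 0.66 and 0.70, with edgeR adjusted p of 0.988 and 0.219.

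Of the kinases of the list, Dgkd had the highest mean RPKM in every group except double-deficient CLPs. It was lower than wild-type in all deficient genotypes of B cell progenitors without being called. Its level there was 716.6, 670.8 and 639 CPM in wild-type, 462.4, 566.9 and 474.8 CPM in PLCγ1-deficient, 427.6, 624.5 and 376.8 CPM in PLCγ2-deficient and 299.1, 547.5 and 428.6 CPM in double-deficient libraries. No deficient library reached the lowest wild-type library. The log2 fold changes were -0.41, -0.48 and -0.67, the last with an edgeR adjusted p of 0.246. In CLPs wild-type libraries were 417.6, 761.7 and 558.7 CPM and spanned the range of the double-deficient libraries of 368.3, 428 and 483 CPM in part, so the groups overlapped. The log2 fold changes in CLPs were -0.32 in each single-deficient genotype and -0.45 in double-deficient cells (edgeR adjusted p = 0.654). The 3 comparisons in a population share their wild-type libraries.

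Dgkz, the other kinase known from antigen receptor signalling, differed little between genotypes. It was 392.7 to 499 CPM in wild-type and 404.6 to 431.2 CPM in double-deficient CLPs, and 350.1 to 368.9 and 323.1 to 407.4 CPM in B cell progenitors. The log2 fold change was -0.12 (95% interval -0.49 to 0.24) and -0.04 (95% interval -0.38 to 0.30). Of the summed RPKM of the 3 kinases, Dgka made up 15.8% ± 1.22 in wild-type and 24.1% ± 5.67 in double-deficient CLPs, and 15.2% ± 0.249 and 24.9% ± 5.62 in B cell progenitors (SD, n = 3). Dgkd made up 44.8% ± 7.01 and 36.4% ± 0.764 in CLPs, and 53.5% ± 1.55 and 38.8% ± 1.18 in B cell progenitors. The share of Dgkz lay between 31.3% and 41.4% in all 8 groups.

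Among the GTPase-activating proteins, Rasa2 had narrow ranges. It was 43.0, 42.6 and 42.6 CPM in wild-type and 38.0, 39.0 and 36.7 CPM in double-deficient CLPs, and 43.2, 49.9 and 53.9 against 35.7, 42.9 and 41.3 CPM in B cell progenitors. The double-deficient libraries lay below the wild-type libraries in both populations. Rasa2 gave log2 fold changes of -0.18 in CLPs and -0.29 in B cell progenitors, with edgeR adjusted p of 0.766 and 0.438, below the size required of a call.

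Rasal3 followed the libraries more than the genotypes in CLPs. Wild-type libraries were 351.6, 145.6 and 146.7 CPM and double-deficient libraries 171, 339.3 and 194.6 CPM, with the highest value of each among the 4 libraries of high Flt3. The log2 fold change of 0.11 had a 95% interval of -1.12 to 1.34. In B cell progenitors Rasal3 was 130.2, 132.5 and 134.1 CPM in wild-type and 151.7, 214.9 and 177.9 CPM in double-deficient libraries, which did not overlap, and the log2 fold change was 0.46 (SE 0.162, edgeR adjusted p = 0.276).

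B cell progenitors were compared with CLPs within each genotype, and no member was called. The share of reads on no gene did not overlap between populations (17.9% to 45.2% in CLPs, 59.9% to 87.3% in B cell progenitors). Nor did that of ambiguous reads (1.06% to 1.44% and 0.11% to 0.42%). Cell population and this technical difference therefore cannot be told apart in these comparisons. In wild-type cells edgeR called 0 of the 10 members, with 0 at an unadjusted p of at most 0.05, and DESeq2 called 0, against 3.5% of all genes tested. The log2 differences of B cell progenitors over CLPs were 0.40 for Rasgrp1, -0.29 for Rasgrp2, 0.74 for Rasgrp3, 0.07 for Rasgrp4, 0.14 for Sos1, -0.07 for Dgka, -0.32 for Dgkz, 0.22 for Dgkd, 0.20 for Rasa2 and -0.70 for Rasal3. The libraries of the 2 populations did not overlap for 5 members (Rasgrp3, Sos1 and Rasa2 higher, Dgkz and Rasal3 lower in B cell progenitors), against 20.9% of all genes tested. In PLCγ1-, PLCγ2- and double-deficient cells the libraries of the 2 populations overlapped for all 10 members, where 23.5%, 18.3% and 21.3% of all genes did not overlap. In the other genotypes edgeR and DESeq2 also called 0 members, with 2 at an unadjusted p of at most 0.05 in PLCγ1-deficient and 0 in PLCγ2- and double-deficient cells, where 3.78%, 3.21% and 3.24% of all genes were called. The log2 difference of Dgkz was also below 0 in each, at -0.42 in PLCγ1-deficient (edgeR adjusted p = 0.126), -0.33 in PLCγ2-deficient and -0.25 in double-deficient cells, and the median of all genes in the PLCγ1-deficient comparison was 0.133. Rasal3 was at -0.94, -0.57 and -0.37, and without the 4 CLP libraries of high Flt3 these differences were smaller, with a wild-type difference of -0.12.

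The surrounding pathway was described by 79 further genes in 7 lists: other Ras and Rap exchange factors, other Ras GTPase-activating proteins, other diacylglycerol kinases, Ras proteins, kinases and scaffolds from Raf to ERK, adaptors upstream of Sos1 and PLCγ, and other genes of diacylglycerol metabolism and binding (phospholipases C and other enzymes that make or remove it, the phospholipase-related Plcl2, and Chn1 and Chn2, which encode diacylglycerol-binding GTPase-activating proteins for Rac). Of these, 74 were tested in each population and 76 over both. In double-deficient against wild-type cells 1 gene was called lower in CLPs and 2 in B cell progenitors, and none was called higher. At an unadjusted edgeR p of at most 0.05 there were 13 and 15, against 7.52% and 12.3% of all genes. Plcg2, the deleted gene itself, was called in both (-1.10 and -1.35). The other was Rasal1, a GTPase-activating protein, which was 15.1 to 16.5 CPM in wild-type and 1.59 to 5.15 CPM in double-deficient B cell progenitors, a log2 fold change of -2.07 (SE 0.361, edgeR adjusted p = 0.0188). None of the 9 other exchange factors, 8 Ras proteins, 11 kinases and scaffolds or 12 adaptors was called by edgeR in either comparison.

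Elsewhere on these lists the calls were few. Plcg2 was also called lower in PLCγ2-deficient against wild-type (-1.37) and in double- against PLCγ1-deficient (-1.16) B cell progenitors. Between populations, Dgki was called higher in PLCγ1-deficient B cell progenitors than in CLPs of the same genotype (log2 difference 3.52, at 2.05 to 10.6 against 0.248 to 0.720 CPM). Its level in those B cell progenitors was low and uneven, with a mean of 4.90 CPM and an SD of 4.92 (n = 3). The kinases Dgkk and Dgkb were similarly uneven there, at 4.80 ± 5.89 and 2.69 ± 2.81 CPM. The highest value of Dgki, Dgkk and Dgkb there was in library PLCγ1-deficient 2, which had the largest share of reads on no gene (87.3%). Mapk3, which encodes the kinase ERK1, was called lower in PLCγ1-deficient B cell progenitors than in CLPs (-0.77). In PLCγ2-deficient cells Araf, a Raf kinase, was lower in B cell progenitors (-0.57), and in double-deficient cells Rap1a, a target of RasGRP2, was higher (0.68). No listed gene was called in wild-type cells between populations, with 16 at an unadjusted p of at most 0.05, against 16.1% of all genes tested. The mean levels of Mapk3, Araf and Rap1a nevertheless differed in the same direction in all 4 genotypes. In wild-type CLPs and B cell progenitors Mapk3 was at 100.2 and 74.2 CPM, Araf at 87.3 and 71.9 CPM and Rap1a at 110.3 and 151.9 CPM. The calls of Mapk3, Araf and Rap1a therefore do not set 1 genotype apart.

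The pattern of each member over the 24 libraries, centred within each population, was compared with that of all other genes by Pearson's r on log2 CPM, as a description that shares libraries and depth. The genes most like Rasgrp1 were Cd2, a lymphocyte adhesion receptor (r = 0.92), Ikzf3, which encodes the transcription factor Aiolos (0.903), and Il2ra, which encodes CD25 (0.897). Cd2 was 3.26 to 16.02 CPM in the 6 double-deficient libraries and 19.97 to 42.9 CPM in the other 18, and Il2ra was 2.96 to 11.4 against 10.6 to 78.4 CPM. Ikzf3 was 38.3 to 113.9 against 81.2 to 333.4 CPM. Cd2, like Rasgrp1, did not overlap between double-deficient and other libraries, whereas Ikzf3 and Il2ra did. These genes were picked by their likeness to Rasgrp1 in the same libraries, so a shared separation is no separate result.

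The other members each had their own nearest genes. Rasgrp2 was most like Plscr3 (r = 0.932), Zmynd8 (0.926) and Cat (0.924), and Rasgrp3 most like Pde4c (0.886), Pik3c2b (0.797) and Pllp (0.789). Rasgrp4 was most like Adam15 (0.933), Anxa5 (0.928) and Sirpa (0.925), and Sos1 most like Ksr1, a scaffold of the Raf to ERK kinases (0.856), Trp53bp2 (0.838) and Kdm5c (0.833). Among the kinases, Dgka was most like Map4k2 (0.957), Sft2d2 (0.931) and Spata13 (0.929), Dgkz most like Usp11 (0.894), Usp19 (0.877) and Mllt1 (0.86), and Dgkd most like the ceramide kinase Cerk (0.953), the tyrosine kinase Syk (0.936) and Neil1 (0.93). Rasa2 had the lowest values, with A430105I19Rik (0.811), Dus3l (0.791) and Dennd6b (0.752), and Rasal3 the highest, with Jak1 (0.968), Agap2 (0.943) and Prkacb (0.939). No member was among the 3 genes nearest to another member.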

How the data were processed

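RNA was measured by poly(A) RNA-seq in 24 libraries, 3 for each of 4 genotypes in each of 2 populations. Alignment by the authors was to mm10, with STAR 2.5.0a per the submitters' processing notes, and the deposited values are raw counts per gene and library. The counting program and its use of strand are not given in the sources used here. The 2 closing lines of each table, reads on no gene and ambiguous reads, were left out.

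The test of these counts was the quasi-likelihood test of edgeR 4.0.16 (R 4.3.3), with TMM factors, filterByExpr and Benjamini-Hochberg adjustment over all genes tested. The 12 libraries of a population were fitted together for genotypes, and all 24 together for populations. The thresholds were an adjusted p of 0.05 and a log2 fold change of 0.5. CPM used TMM-adjusted totals, and RPKM the union of annotated exons. Intervals and floors cover the spread between libraries and counting error only. The code was tested on simulated data. The alternatives were DESeq2 1.42.0, other size factors, no filter, thinned counts, a replicate block, 2 groups alone, each library left out, and the 3 sets of libraries named in the report, chosen after the data were seen.

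All members were named in each comparison, pathway genes where called (1 is not reported here), and the 3 genes of the most similar pattern. The members and lists were chosen with earlier results of these data known. Libraries of both populations came from the same mice, so the mouse as a block was the paired fit between populations. Between genotypes only the numbers are shared, and deviations of same-numbered libraries correlated above 0.1 in every pair only for double- against PLCγ1-deficient CLPs (lowest 0.346, mean 0.436, against -0.218 for other pairs). No 2 replicates differed by as little as sampling noise (chi-square per degree of freedom from 9.62).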

Additional observations from a re-analysis of the deposited data

How the results depend on the processing

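The number of members called between double-deficient and wild-type CLPs, 1, became 0 with the 2 groups fitted alone, without the 4 CLP libraries of high Flt3 and without the 6 libraries of low Il7r, and 0 to 1 when 1 library was left out. In B cell progenitors the 1 member became 2 with DESeq2, 3 without the 6 libraries of low Il7r, 0 with the 2 groups alone (Rasgrp1 -2.69, adjusted p = 0.0625), and 0 to 2 when 1 library was left out. Against PLCγ1-deficient cells the 0 members became 1 without the filter, with DESeq2 and with thinned counts in CLPs (0 to 1 with 1 library left out), and 1 without the filter and 2 with DESeq2 in B cell progenitors (0 to 2 with 1 library left out). The cause was not tested. The other 9 comparisons had 0 members called under every alternative run.

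The replicate number as a block raised the members called to 1 and 2 for double- against PLCγ1-deficient CLPs and B cell progenitors (Rasgrp1 -2.72, adjusted p = 0.0242, and Rasgrp2 0.86, adjusted p = 0.0439), and to 3 for double-deficient against wild-type B cell progenitors, with Rasgrp1 (-2.77), Rasgrp2 (0.80, adjusted p = 0.0239) and Dgkd (-0.71, adjusted p = 0.0444). Libraries of different genotypes share only a number, and same-numbered libraries deviated together in every pair only in the CLP comparison with PLCγ1-deficient cells. Over all genes the block also raised the counts called, from 4 to 17 and from 32 to 100 against PLCγ1-deficient CLPs and B cell progenitors. For double-deficient against wild-type B cell progenitors they rose from 134 to 550. The block, and the mouse as a block between populations, changed no other call of a member.

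Of 1350 alternative values of 54 fold changes, 1294 kept direction and call, 18 lost and 18 gained the call, and 20 changed sign, all of these among fold changes that were not called. They were Rasal3 between double-deficient and wild-type CLPs (-0.029 with the block, -0.23 to 0.65 with 1 library left out), Rasgrp1 in PLCγ1-deficient CLPs (0.0052 without the filter, 0.18 without the 4 libraries, -0.14 to 0.096) and in PLCγ2-deficient CLPs (0.00049 without the 4 libraries, -0.14 to 0.036), Rasgrp1 in PLCγ1-deficient B cell progenitors (0.0065 without the 3 libraries of most reads on no gene, -0.30 to 0.078), Rasgrp3 between double- and PLCγ1-deficient B cell progenitors (0.17 without the 6 libraries), Dgkz between double-deficient and wild-type B cell progenitors (-0.15 to 0.022), Rasgrp4 (-0.20 to 0.22) and Dgka (-0.17 to 0.054) between wild-type populations, and Rasgrp2 in the difference of differences (-0.072 to 0.39).

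Over all genes, the counts called moved more than those of the members. Between double-deficient and wild-type cells they were 14 in CLPs (0 to 169 over the alternatives, 0 to 44 with 1 library left out) and 134 in B cell progenitors (101 to 550, and 50 to 184), and against PLCγ1-deficient cells 4 (0 to 96, and 1 to 18) and 32 (0 to 802, and 0 to 58). Single-deficient against wild-type cells gave 1 (0 to 16) and 0 (0 to 11) in CLPs and 9 (5 to 29) and 7 (0 to 17) in B cell progenitors. Between populations they were 602 (364 to 818), 650 (291 to 1484), 552 (197 to 764) and 557 (326 to 751). Low counts limit Rasgrp3, with 7 reads in its smallest library, more than the other members.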
